A study of Mus musculus with 12 samples.

Results

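The step from 10 to 100 nM dTAG13 was examined in mouse embryonic stem (mES) cells whose BRG1 protein carries a degron, to see which transcripts still followed BRG1 once most of the protein had been removed. The 2 libraries of the 100 nM dose were compared with the 2 libraries of the 10 nM dose, 4 of the 12 RNA-seq libraries of the series. The genes considered were the 11421 of 24421 in the counts table with a mean level of at least 1 RPKM over these 4 libraries, where RPKM is a count of read pairs scaled to exon length in kb and to library size (with TMM factors).

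All libraries came from B6 mES cells grown in 2i+LIF, a medium that holds them in the naive state, and all carried the genotype Brg1 dTag knock in, an FKBP12-based degron at the Brg1 locus, the 0 nM controls included. The line was raised from colonies of single cells, so its cells descend from few founders. dTAG13, a bifunctional compound that brings the tagged protein to the proteasome, was given for 24 h at 0.3, 1, 3, 10 or 100 nM, and 0 nM cells received none. Each dose had 2 libraries, which the labels number without saying whether they came from separate cultures, so p-values measure the spread between these libraries. In the column headers the 0.3 and 3 nM libraries carry sample numbers that libraries of other doses carry too. The labels do not say what this stands for. A difference of 0.3 or 3 nM from the other doses cannot be told apart from it.

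BRG1, encoded by Smarca4, is the ATPase that powers the mSWI/SNF chromatin remodelling complexes of mES cells. These complexes slide and evict nucleosomes, which keeps many enhancers and some promoters open to transcription factors. They also affect where Polycomb proteins bind. BRM, encoded by Smarca2, is the alternative ATPase and is scarce in mES cells.

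The 4 libraries held between 5483920 and 6194961 read pairs assigned to genes, of which 12.1% to 17.7% fell on the ribosomal precursor Rn45s. The second 10 nM library stood apart from the other libraries of the series on the second principal component. Across genes, which are not independent replicates, the paired libraries had a Pearson r of 0.946 at 10 nM and 0.951 at 100 nM. The cells carried the defining markers of mES cells, with Pou5f1 at 564 and 538 RPKM in the 10 nM libraries and at 505 and 466 RPKM in the 100 nM libraries, and with Sox2, Nanog, Esrrb and Zfp42 between 65.2 RPKM (Sox2) and 346 RPKM (Nanog) over the 4. None of these 5 markers passed the test between the doses. In bulk RNA, fewer cells making a transcript and less transcript per cell cannot be told apart.

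The targeted gene gives no check on protein loss, since the degron acts on the protein. Smarca4 had 10 nM counts of 2561 and 2365 and 100 nM counts of 2747 and 2777, which is a log2 fold change of 0.09 (SE 0.06, adjusted p = 0.553, edgeR quasi-likelihood test, Benjamini-Hochberg adjusted). Smarca2 lay under the level filter, with 25 and 26 counts in the 10 nM libraries against 29 and 28 in the 100 nM ones. Of 26 tested mSWI/SNF subunit genes, none was called by the rule used throughout below, and 1 had an adjusted p under 0.05, Gltscr1l, which encodes a subunit of the non-canonical complex and had a log2 fold change of -0.37.

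Most genes that changed between 10 and 100 nM fell. Genes were called at an adjusted p under 0.05 with more than a 1.5-fold change (edgeR's quasi-likelihood test, all 12 libraries in 1 fit). By this rule 114 genes fell and 18 rose from 10 to 100 nM, which is 0.998% and 0.158% of the genes tested, so that 86.4% of the 132 called genes were lower. Among the falls the median log2 fold change was -0.81, with a range of -0.59 to -2.12, and 33 genes lost more than 2-fold. The rises had a median of 0.71 and reached 1.48, and 4 were over 2-fold. Over all tested genes the median log2 fold change was -0.04. At an adjusted p under 0.05 with no minimum fold, 273 genes were lower and 45 higher, which is 2.39% and 0.394%.

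The size and the members of the called set rested on single libraries. Fewer genes rose without any 1 of the 4 libraries. Fewer fell without the second 10 nM library or either 100 nM library. More fell without the first 10 nM library, but these lacked some of the 114 and held genes outside them. DESeq2 called 10 higher and 76 lower, and a test against the 1.5-fold minimum itself called 0 and 12. Lower genes made up 78.3% or more of the calls in every setting tried, and no called gene turned its direction in any.

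**Figure D1:**
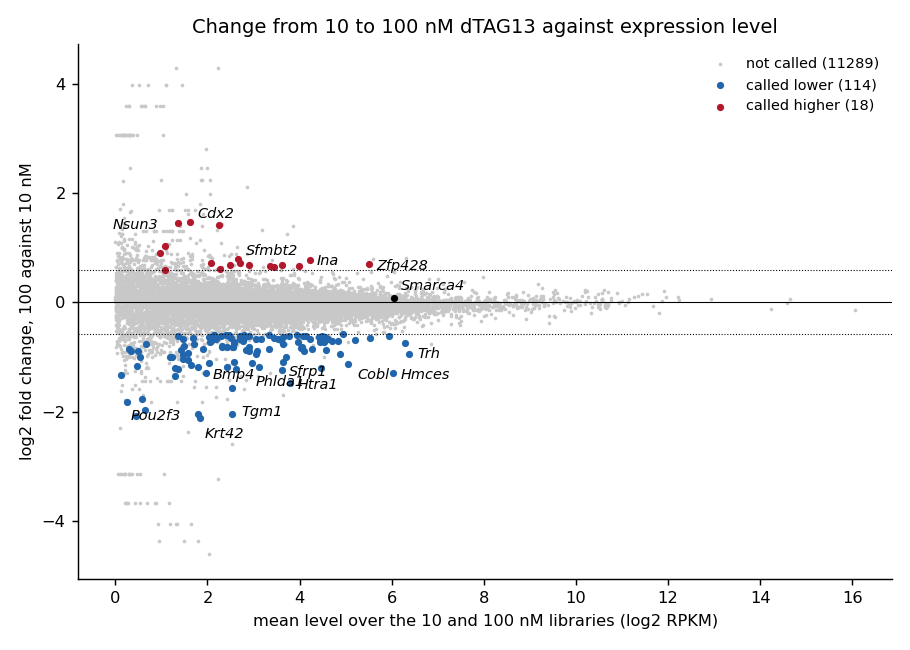
Log2 fold change of 100 against 10 nM (vertical) against the mean level over the 4 libraries (log2 RPKM, horizontal), 1 point a gene, with genes called lower in blue, genes called higher in red, Smarca4 in black and dotted lines at 1.5-fold. The 114 blue points outnumber the 18 red ones at nearly every level, and the 88 grey points beyond 4-fold are genes with a mean of under 4 counts.

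The deepest falls, each of over 4-fold, were those of Krt42, Aoah, Tgm1 and Pou2f3. Krt42, a type I keratin, had 10 nM counts of 65 and 43 and 100 nM counts of 17 and 9, a 4.34-fold fall (log2 fold change -2.12, SE 0.33). Tgm1, the transglutaminase that cross-links proteins of the cornified envelope, went from 179 and 159 counts to 47 and 39 (-2.05, SE 0.16). Pou2f3, a POU-domain transcription factor of tuft cells, went from 84 and 85 counts to 20 and 23 (-2.05, SE 0.23). In each of these genes both 100 nM libraries lay below both 10 nM libraries, as in 113 of the 114 falls, against 27.2% of all tested genes. In all 18 rises both 100 nM libraries lay above both 10 nM libraries, against 14.2%. The calls rest on the same libraries, so these shares describe the called genes and add no support. Aoah, an enzyme that deacylates lipopolysaccharide, fell from 2.23 ± 0.780 to 0.517 ± 0.168 RPKM (SD, n = 2), but this call was lost without the second 10 nM library.

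The falls with the smallest adjusted p were in more abundant transcripts. Cobl, an actin nucleator, had 10 nM counts of 1646 and 1499 and 100 nM counts of 733 and 779, a 2.19-fold fall (log2 fold change -1.13, SE 0.06, adjusted p = 4.6e-12, edgeR quasi-likelihood test, Benjamini-Hochberg adjusted). Hmces, which binds abasic sites in single-stranded DNA, went from 770 and 801 counts to 351 and 324, or from 92.9 ± 5.96 to 37.8 ± 2.63 RPKM (SD, n = 2). The libraries of the 2 doses were far apart in both genes. Htra1, a secreted serine protease, fell 2.79-fold from 245 and 254 counts to 102 and 87. Sfrp1, a secreted WNT antagonist, fell 2.36-fold from 459 and 445 counts to 184 and 220. The remaining genes called lower under each of the 17 alternative settings that keep the 1.5-fold minimum or test against it were, besides these, Krt42, Tgm1, Pou2f3, Phlda1, Trh, Mras and Nlrp4f, which makes 11 in all.

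The promoters of 4 of these genes are shown because the genes that fell had fewer CpG sites in their promoters than tested genes at large, as described below. Each line is the 250 bases before the furthest upstream RefSeq start, 5′ to 3′ on the gene's own strand (GRCm38.p6, the assembly called mm10), with every CG in capitals. Krt42 is on the minus strand of chromosome 11 (100269952 to 100270201), Tgm1 on the minus strand of chromosome 14 (55713493 to 55713742), Cobl on the minus strand of chromosome 11 (12464961 to 12465210) and Hmces on the plus strand of chromosome 6 (87913726 to 87913975).
Krt42: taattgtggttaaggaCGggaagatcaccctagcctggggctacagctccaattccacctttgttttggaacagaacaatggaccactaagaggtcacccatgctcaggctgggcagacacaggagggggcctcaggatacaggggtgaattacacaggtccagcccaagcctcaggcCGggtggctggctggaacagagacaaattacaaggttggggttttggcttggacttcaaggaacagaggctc
Tgm1: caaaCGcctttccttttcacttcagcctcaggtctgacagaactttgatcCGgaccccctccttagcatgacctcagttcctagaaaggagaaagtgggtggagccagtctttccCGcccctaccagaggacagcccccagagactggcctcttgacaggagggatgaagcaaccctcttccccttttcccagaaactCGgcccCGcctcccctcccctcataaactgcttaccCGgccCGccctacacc
Cobl: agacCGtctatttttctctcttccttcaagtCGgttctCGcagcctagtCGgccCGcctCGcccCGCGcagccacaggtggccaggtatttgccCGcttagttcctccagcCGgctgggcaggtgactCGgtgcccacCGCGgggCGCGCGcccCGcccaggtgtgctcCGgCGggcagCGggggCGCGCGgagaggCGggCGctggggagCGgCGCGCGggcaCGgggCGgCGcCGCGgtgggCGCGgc
Hmces: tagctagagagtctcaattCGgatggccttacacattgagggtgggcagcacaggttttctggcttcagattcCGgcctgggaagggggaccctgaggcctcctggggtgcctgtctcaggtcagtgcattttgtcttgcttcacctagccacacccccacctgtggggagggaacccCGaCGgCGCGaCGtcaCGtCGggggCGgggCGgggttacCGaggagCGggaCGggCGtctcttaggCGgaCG
The Krt42 window holds 2 CG sites and that of Tgm1 7, where that of Hmces holds 17 and that of Cobl 36.

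RefSeq promoters were matched for 8910 of the 11421 tested genes, for 93 of the 114 that fell and for 15 of the 18 that rose. The median ratio of observed to expected CpG, which corrects for base content, was 0.523 in promoters of genes that fell, 0.741 in those of genes that rose and 0.755 in all tested. A promoter was counted as rich in CpG where G and C made up over 50% of its bases and the ratio was over 0.6, which held for 43.0% of the promoters of genes that fell, 9 of the 15 of genes that rose and 66.5% of all. In steps of the dose series that share no library with this one, the share was 58.3% for genes that fell from 0 to 1 nM and 52.5% for genes that fell from 0.3 to 3 nM. It held for 3 of the 12 promoters of genes that rose from 0 to 1 nM and for 60.4% of those of genes that rose from 0.3 to 3 nM, so low shares were not limited to genes that fell. These shares are descriptions and were not tested.

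**Figure D2:**
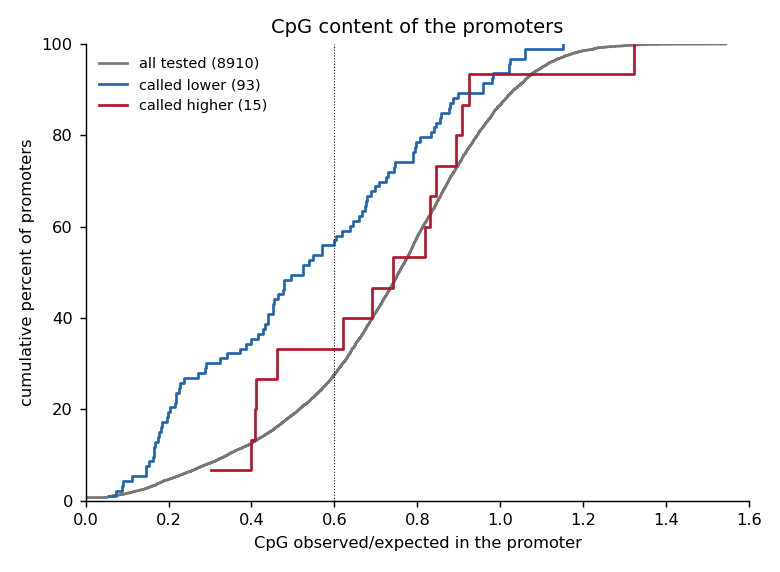
Cumulative percent of promoters (vertical) by observed/expected CpG (horizontal, a ratio) for all 8910 matched tested genes in grey, the 93 called lower in blue and the 15 called higher in red, with a dotted line at 0.6. The blue curve lies left of the grey one, with medians of 0.523 and 0.755.

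Of 7 motifs searched on both strands in the same windows, the AP-1 motif TGACTCA was in 6 of the 93 promoters of genes that fell (6.45%), those of Nlrp4f, Rps6ka4, Trmt44, Wnt5b, Gm21283 and Cldn4, named here after their values were seen, and in 2.58% of all. The E-box CACGTG was in 6.45% against 9.08% of all, the ETS motif CCGGAAGT in 3.23% against 6.62%, and the STAT motif TTCNNNGAA in 5.38% against 5.66%. The GC box GGGCGG was in 60.2% against 61.5%, CCAAT in 32.3% against 37.7% and TATAAA in 5.38% against 6.07%. A match is only a run of letters, and GGGCGG and CCAAT can lie in 1 window together. The genes that fell had a median level of 8.19 RPKM at 10 nM and a median exonic length of 3162 bases, those that rose 4.49 RPKM and 3290 bases, and all tested genes 9.12 RPKM and 2730 bases.

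The 18 rises were led by Cdx2, the homeobox factor of trophectoderm and hindgut. Cdx2, on chromosome 5 (147300900 to 147307249 in mm10), had 10 nM counts of 19 and 23 and 100 nM counts of 64 and 60, a log2 fold change of 1.48 (SE 0.34, adjusted p = 0.0113, edgeR quasi-likelihood test, Benjamini-Hochberg adjusted). The doses did not overlap, but this call was lost with DESeq2 and without any 1 of the 4 libraries. Nsun3, a methyltransferase of mitochondrial tRNA, went from 9 and 13 counts to 35 and 29, and Snrnp35, a protein of the minor spliceosome, from 18 and 16 to 61 and 35. Neither kept its call with DESeq2 or without either of the 10 nM libraries.

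The rises with the smallest adjusted p were Sfmbt2, a Polycomb-group gene needed in trophoblast, and Ina, the neurofilament protein alpha-internexin. Sfmbt2 had 10 nM counts of 281 and 231 and 100 nM counts of 477 and 463 (1.74-fold, log2 fold change 0.80, SE 0.12). Ina had 189 and 184 counts and then 343 and 331 (1.71-fold). Both were called in 16 of the 17 alternatives, all but the test against the minimum fold, and so were Zfp428, Sfi1 and Sp5. Zfp428 rose from 34.8 ± 2.70 to 56.5 ± 0.0139 RPKM (SD, n = 2). Reads were counted without regard to strand, and exons of Ina overlap Nt5c2 and those of Sfi1 overlap Pisd-ps1, so reads of these pairs cannot be fully told apart.

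**Figure D3:**
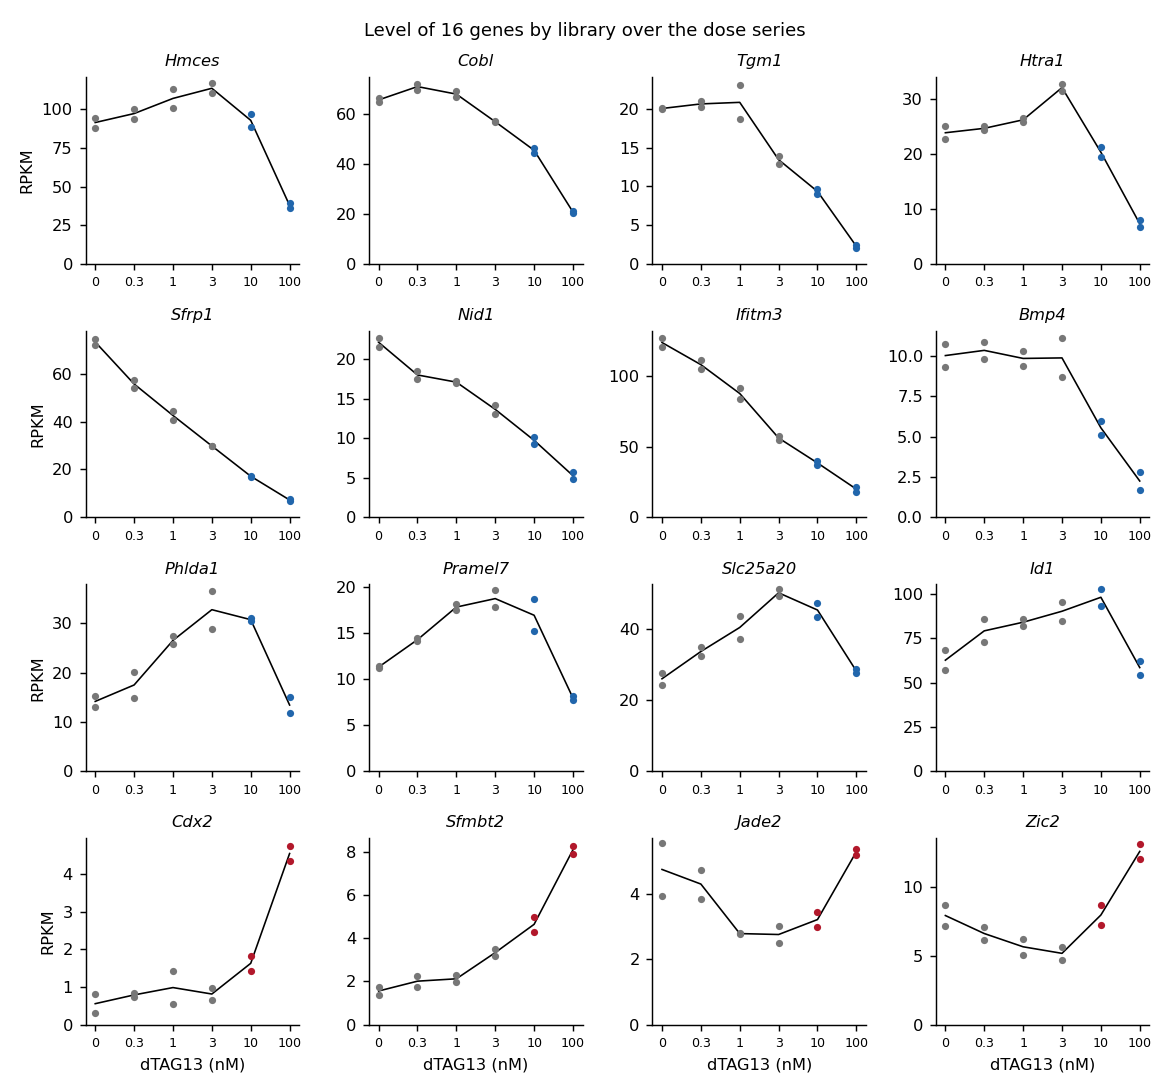
Level of 16 genes (RPKM, vertical, from 0) at each dTAG13 dose (nM, horizontal, evenly spaced), with 1 point a library, 10 and 100 nM coloured blue for genes called lower and red for genes called higher, and the line through dose means. Hmces stays between 91.5 and 114 RPKM up to 10 nM and stands at 37.8 at 100 nM, Sfrp1 falls at every dose, Phlda1 and Slc25a20 rise and then fall, and Jade2 falls and then rises.

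The falls had different histories at the lower doses. The first step, 1 against 0 nM, and the step from 0.3 to 3 nM share no library with the last step. Of the 114 genes that fell in the last step, 9 had also been called lower from 0 to 1 nM (7.89% of these 114, and 12.9% of the 70 called lower in the first step, 0.613% of all tested), and 21 from 0.3 to 3 nM (18.4%, and 13.8% of the 152 called there, 1.33% of all tested). Within 1.5-fold in both earlier steps were 81 of the 114 (71.1%), against 87.4% of all tested genes. The 10 and 100 nM libraries enter both the last step and the comparisons with 0 nM, so what follows on those is a description. Of the 114, 93 were also called lower at 100 against 0 nM, where 7.48% of all tested genes were, and in these 93 the median share of the log2 fall made in the last step was 53.8%. In 20 of them it was over 75%.

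Some genes fell step by step. Sfrp1 stood at 73.2, 42.5, 17.2 and 7.27 RPKM at 0, 1, 10 and 100 nM, with a log2 fold change of -0.78 from 0 to 1 nM and -0.90 from 0.3 to 3 nM. Serpinh1, a chaperone of collagen, stood at 35.0 RPKM at 0 nM, 6.81 at 10 nM and 3.86 at 100 nM. Genes called lower in all 3 of these steps that share no library included Sfrp1, Serpinh1, Fstl1, Laptm5 and Nkx6-2, and exons of Nkx6-2 overlap Inpp5a. The last-step call of Nkx6-2 was lost without the second 10 nM library or either 100 nM library, and that of Fstl1 without the first 10 nM library and with upper-quartile factors. Trh, the precursor of thyrotropin-releasing hormone, was called in the first and last steps and stood at 401 RPKM at 0 nM and 56.5 at 100 nM.

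Other genes held their level until the last step. Hmces stood at 91.5 RPKM at 0 nM, 107 at 1 nM and 92.9 at 10 nM before its fall to 37.8, and its log2 fold change in the last step less that in the first was -1.53 (adjusted p = 9.71e-09, edgeR quasi-likelihood test, Benjamini-Hochberg adjusted). Htra1 stood at 23.9, 26.3 and 20.4 RPKM at these doses and at 7.30 at 100 nM. Nynrin stood at 39.6, 46.6, 35.3 and 21.8 RPKM at 0, 1, 10 and 100 nM. The last step differed from the first at an adjusted p under 0.05 in 215 of all tested genes (1.88%). That set held 58 of the 114 falls, lower in the last step in each of them, and 4 of the 18 rises, but the called genes were picked by the last step, so these shares describe them only.

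Some genes rose at low doses and fell in the last step. Called higher from 0 to 1 nM and lower from 10 to 100 nM were 5 genes, Phlda1, Slc25a20, Pramel7, Soga3 and Ak7, where 0.166% of all tested genes were called higher in the first step. Ak7, an adenylate kinase, was named after its values were seen. Phlda1, which responds to growth factor signalling, had 10 nM counts of 366 and 356 and 100 nM counts of 184 and 148. Its mean level was 14.1, 26.5, 30.7 and 13.4 RPKM at 0, 1, 10 and 100 nM, with log2 fold changes of 0.91 in the first step (adjusted p = 0.000466) and -1.20 in the last (adjusted p = 4.15e-06, both edgeR's quasi-likelihood test). Its level at 100 nM was thus near that of untreated cells.

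Slc25a20, the mitochondrial carrier of acylcarnitines, ran the same way, from 26.0 RPKM at 0 nM to 45.4 at 10 nM and 28.2 at 100 nM. Pramel7, a PRAME-family gene of naive cells, stood at 11.3 RPKM at 0 nM, at 18.7 and 15.2 RPKM in the 10 nM libraries and at 7.96 RPKM at 100 nM. It belongs to a family of near copies, and read pairs that map to several places were left out of the counts. Id1, a target of BMP signals that blocks differentiation factors, had a log2 fold change of 0.42 from 0 to 1 nM, short of the 1.5-fold minimum, and fell from 98.2 ± 6.83 to 58.4 ± 5.65 RPKM (SD, n = 2) in the last step. Soga3 and Ak7 lost their last-step call with DESeq2, in the fit of the 4 libraries alone and without the first 10 nM library or either 100 nM library.

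The mirror course was seen in 1 rise. Jade2, a PHD-finger protein of histone acetyltransferase complexes, fell from 4.74 RPKM at 0 nM to 2.78 at 1 nM, and rose from 3.21 ± 0.328 at 10 nM to 5.28 ± 0.132 at 100 nM (SD, n = 2). Its call in the last step was lost without the first 10 nM library or either 100 nM library. The difference between its steps was 1.49 on the log2 scale (adjusted p = 0.000234, edgeR's quasi-likelihood test). Zic2, a zinc-finger factor of the formative state, stood at 7.93, 5.66, 7.97 and 12.6 RPKM at the same 4 doses, and its steps differed by 1.15. Its call was lost without the first 10 nM or the second 100 nM library. Of the 18 rises, 3 had also been called higher from 0.3 to 3 nM (16.7% of the 18, and 4.29% of the 70 called there, 0.613% of all tested), namely Sfi1, Sfmbt2 and Igdcc3, and 2 lower, Mdfic and Jade2. Mdfic kept its call in 8 of the 17 alternatives, and Igdcc3 lost it without the first 10 nM or the first 100 nM library.

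**Figure D4:**
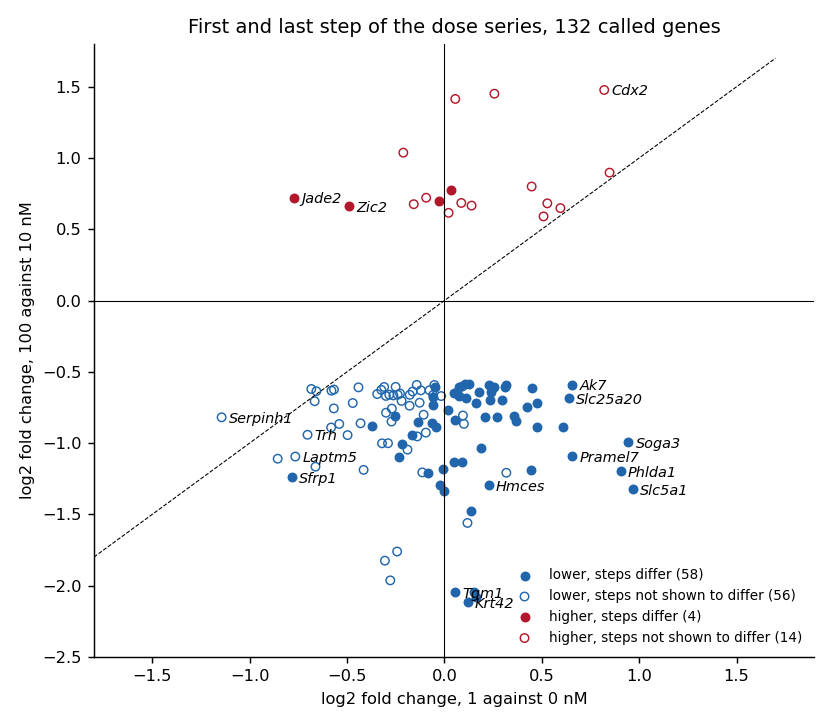
Log2 fold change of 100 against 10 nM (vertical) against that of 1 against 0 nM (horizontal) for the 132 called genes, blue for lower and red for higher in the last step, filled where the 2 steps differ at an adjusted p under 0.05, with equality on the dashed line. Of the blue points 58 are filled, and Phlda1, Pramel7, Slc25a20, Soga3 and Ak7 lie right of 0 and below 0.

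None of 30 naive pluripotency genes was called, and their median log2 fold change was -0.10. With no minimum fold 5 of the 30 passed the test, where 2.78% of all tested genes did. They were 3 lower genes, Fgf4 (-0.47), Tbx3 (-0.43) and Tet2 (-0.33), and 2 higher ones, Mycn (0.48) and Klf2 (0.30). Mycn, a MYC-family driver of growth, had 10 nM counts of 796 and 765 and 100 nM counts of 1147 and 1150. Fgf4, the ligand that pushes naive cells towards differentiation, had 1360 and 1469 counts and then 1034 and 1122. Among 13 tested formative and primed genes, Zic2 and Lef1 rose, where 0.158% of all tested genes did, and none was called lower. With no minimum fold 4 were higher and 3 lower at an adjusted p under 0.05. Over all tested genes these shares were 0.394% and 2.39%. Dnmt3l, a cofactor of DNA methylation, was lower in this way, from 1564 and 1256 counts to 1011 and 1058. The list's median was -0.05.

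Signalling genes moved in both directions within a list. In the WNT list 3 of 22 tested members rose, Sp5, Lef1 and Cdx2, and 2 fell, Sfrp1 and Cdx1, with a median log2 fold change of 0.04. Of all tested genes 0.158% rose and 0.998% fell. Sp5, a direct target of beta-catenin, had 10 nM counts of 156 and 152 and 100 nM counts of 262 and 254, with no overlap. Lef1, a nuclear partner of beta-catenin, had 121 and 98 counts and then 184 and 197, a call lost with DESeq2 and without the second 10 nM library or either 100 nM library. Axin2, the feedback inhibitor most often read as a WNT target, had a log2 fold change of -0.28 and did not pass the test (adjusted p = 0.158, edgeR's quasi-likelihood test). Cdx1, a homeobox relative of Cdx2, went the other way from it, from 162 and 138 counts to 107 and 93.

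Of 11 tested BMP and ID genes 2 fell, the ligand Bmp4 and the target Id1, where 0.998% of all tested genes fell. The list's median was -0.04 (0.0069 with upper-quartile factors). Bmp4 had 10 nM counts of 63 and 70 and 100 nM counts of 35 and 22, a 2.46-fold fall that was lost without the second 100 nM library. The receptors Bmpr1a and Bmpr2 and the targets Id2 and Id3 had log2 fold changes between -0.16 and 0.09 and did not pass the test. Among 15 ERK feedback genes Phlda1 fell, and Etv4 was lower and Etv5 higher below the minimum fold, both ETS factors induced by ERK. No member of the LIF and STAT3 list (16 tested) or of the AP-1 and immediate early list (13) had an adjusted p under 0.05, and none of the NODAL and TGF-beta list (15) was called.

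Of 25 tested matrix and integrin genes 4 fell, where 0.998% of all tested genes did. They were the nidogens Nid1 and Nid2 of the basement membrane, Serpinh1 and the integrin subunit Itga3. With no minimum fold 8 were lower and none higher at an adjusted p under 0.05. Over all tested genes these shares were 2.39% and 0.394%. The calls of Nid1 and Nid2 were lost in 1 of the 17 alternatives, the test against the minimum fold. Itga3 was also lost with DESeq2, in the fit of the 4 libraries alone and without any 1 of them, and Serpinh1 without the first 10 nM or the second 100 nM library. Nid1 had 10 nM counts of 349 and 360 and 100 nM counts of 184 and 222, a 1.84-fold fall. Hspg2 (perlecan), Sparc and Col18a1, which also belong to the matrix, had log2 fold changes of -0.47, -0.55 and -0.43. The median of the list was -0.11. Exons of Nid2 overlap the antisense gene 2700060E02Rik, and the reads of the pair cannot be told apart.

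In the epithelial junction and keratin list 2 of 24 tested genes fell, against 0.998% of all tested genes. They were Jup (plakoglobin) and the claudin Cldn4. The list's median of -0.02 turned to 0.0046 with DESeq2's size factors, 0.03 with upper-quartile factors and 0.0092 with none. Jup went from 616 and 568 counts to 388 and 364. Cldn4 was called in 6 of the 17 alternatives and lost with DESeq2, under the 3 other scalings, in both fits of fewer doses, with the replicate block over 12 libraries and without the second 10 nM library or either 100 nM library. In the list of actin, SRF and YAP target genes none of 29 was called, but 26 had a negative log2 fold change with a median of -0.24. Over all tested genes the 50th percentile was -0.04 and the 75th 0.08, so more than 50% of them were negative too. Under the other scalings 25 or 26 of the 29 were negative with medians of -0.19 to -0.22. The medians of all tested genes were then -0.02 to 0.01. Those that passed the test below the minimum fold included the filamin Flna, the tropomyosin Tpm1 and the actin cross-linker Actn4.

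**Figure D5:**
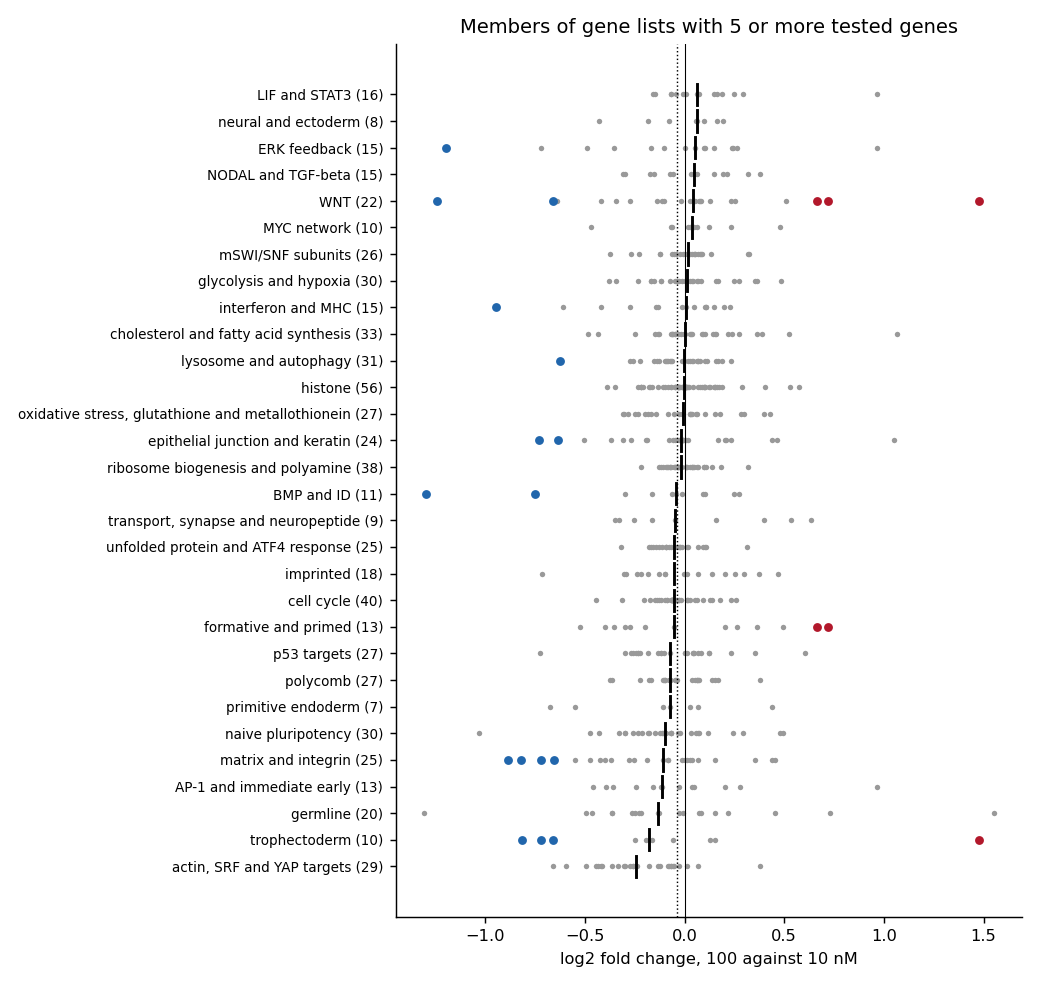
Log2 fold change of 100 against 10 nM (horizontal) for the tested members of the 30 gene lists with at least 5 of them, 1 point a gene, with genes called lower in blue, genes called higher in red, black bars at list medians and a dotted line at the median of all tested genes (-0.04). The WNT list has called genes on both sides, and the actin, SRF and YAP list has the lowest median, at -0.24.

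Of the marker lists of other cell types, only that of trophectoderm held called genes. Of 22 trophectoderm genes 10 were tested, of which Cdx2 rose and Tead4, Ets2 and Cdx1 fell, with a median of -0.18. Over all tested genes the called shares were 0.158% higher and 0.998% lower. Tead4, the factor that sets up the trophectoderm programme, went from 147 and 129 counts to 96 and 81, and Ets2 from 138 and 134 to 73 and 90. The calls of Tead4 and Cdx1 were lost without the first 10 nM or the second 100 nM library, that of Ets2 without the second 10 nM or the first 100 nM library, and that of Cdx2 as given above. The summed level of the list was 70.6 and 67.4 RPKM at 10 nM and 59.9 and 58.6 RPKM at 100 nM. Tested were 7 of 21 primitive endoderm, 4 of 20 mesoderm and endoderm and 8 of 25 neural and ectoderm genes. So were 1 of 13 fibroblast and feeder genes and 3 of 38 HOX genes. None of these tested genes was called. The other members of these lists lay under the level filter, so the lack of calls does not cover them.

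Single members were called in 2 further lists, both lower, where 0.998% of all tested genes fell. Ifitm3, a membrane protein that blocks virus entry, fell from 150 and 151 counts to 89 and 76 and was the sole call among 15 interferon and MHC genes. Mitf, a regulator of lysosomal and pigment genes, was the sole call among 31 lysosome and autophagy genes, with 157 and 153 counts and then 128 and 84, and kept its call in 8 of the 17 alternatives. None was called among 56 histone genes, many of which are near copies that share reads, 40 cell cycle, 38 ribosome biogenesis and polyamine, 33 cholesterol and fatty acid synthesis, 30 glycolysis and hypoxia, 27 Polycomb, 27 p53 target, 25 unfolded protein and ATF4 response, 20 germline, 18 imprinted, 10 MYC network and 9 transport, synapse and neuropeptide genes, or among 27 genes of oxidative stress, glutathione and metallothionein. Their medians ran from -0.13 to 0.04. Sfmbt2, the Polycomb-group gene that rose, is not a member of the Polycomb list. With no minimum fold 2 of the 27 in that list were lower at an adjusted p under 0.05, Kdm2b and Rnf2, and none was higher. Over all tested genes 2.39% were lower by this measure.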

How the data were processed

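RNA was measured in 12 libraries of a dTAG13 dose series, 2 for each of 6 doses. The authors trimmed the reads with Trim Galore, aligned them to mm10 with HISAT2 and counted read pairs per gene on exons with featureCounts 2.0.1, with both ends aligned, no strand and no multi-mapped pairs, as the file header states. They deposited these raw counts per gene symbol with gene positions and exonic lengths, in bases, and no normalization or filter.

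Counts were turned into RPKM by TMM library size and exonic length. Genes reaching 1 RPKM on average in the 4 libraries of 10 and 100 nM were tested with edgeR 4.0.16 (R 4.3.3). The 6 doses were fitted together and contrasts tested by the quasi-likelihood test with Benjamini-Hochberg adjustment, where the study's methods name the likelihood ratio test. TMM assumes that the bulk of genes does not change. Called genes changed more than 1.5-fold with an adjusted p under 0.05. Total counts ran from 4663484 to 6375582 per library, so counting error is wide for genes of few counts.

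Named genes were the 10 largest rises and 10 largest falls among called genes with separated libraries and a mean of at least 20 counts, the 5 smallest adjusted p in each direction, up to 4 members of each gene list with the smallest p, the ATPase genes, the 4 called genes in each direction whose last step differed most surely from the first, and up to 4 that were called the opposite way in the first step. Genes named outside this rule (among them Ak7, Axin2, Bmpr1a, Bmpr2, Id2, Id3, Klf2, Trh, Mras, Nlrp4f, Igdcc3, Col18a1, Itga3, Serpinh1, Fstl1, Laptm5, Nkx6-2 and the AP-1 group) were chosen after their values were seen. Some genes that the rule names are not reported here. The comparison, the members and the gene lists were chosen with earlier results of these data known, and lists are described by counts and medians with no set test. Promoters came from RefSeq (GRCm38.p6), taking the furthest upstream start of each gene and the 250 bases before it.

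The steps were tested on simulated counts. The changed genes were drawn from those with a mean of at least 20 counts, so the shares do not hold for genes of fewer counts. For 100 against 10 nM, 89% of those changed 2-fold and 98% of those changed 3-fold were called, as were 7 of 11221 unchanged genes. For the last step less the first, 66% and 93% passed, as did 11 unchanged genes. Alternatives were the likelihood ratio test, DESeq2 1.42.0, a test against the minimum fold, other normalizations and filters, smaller sets of libraries, a replicate block, other fold minimums and each library left out in turn.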

Additional observations from a re-analysis of the deposited data

How the results depend on the processing

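The counts for 100 against 10 nM were 18 higher and 114 lower, and 215 genes whose last step differed from the first. DESeq2's Wald test gave 10 higher and 136 for the difference of steps, the test against the 1.5-fold minimum (glmTreat) 0, 12 and 14 (335 genes were higher and 1161 lower at an unadjusted p under 0.05 in the edgeR fit), no normalization factors 109 for the difference of steps, a fit of the 4 libraries alone 11 higher, no minimum fold 45 and 273, and a 2-fold minimum 4, 33 and 53. Leaving out 1 library gave 7 to 13 higher, 56 to 122 lower and 104 to 236 for the difference of steps. The other counts stayed within 1.5 times. The difference of steps was not run on the 4 libraries alone, which lack the first step. Among the genes named by rule the sign turned once, for Twist1 (0.08, not called), at -0.23 without the first 10 nM library and 0.43 without the second. Causes were not tested.

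Replicate numbers did not pair the libraries (r = 0.058 between the replicate differences at 10 and 100 nM, with 2 pairs). With a replicate block the counts were 15 higher and 112 lower over 12 libraries, and 17 and 118 over 8. At this depth, changes in genes of few counts were not detectable unless large.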

Other observations

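Of the genes under the 1 RPKM filter, more had a count at 100 nM than at 10 nM. The filter used the 10 and 100 nM libraries only. Genes that fell before 10 nM can thus enter this set, and genes that rose can leave it. The values of low genes at the other doses carry this selection. After each library was thinned to 4004810 counts outside Rn45s and Rpph1, 7639 and 7608 of these low genes had at least 1 count in the 10 nM libraries, and 8862 and 8898 had one in the 100 nM libraries, against 6443 and 6426 at 0 nM. Before thinning, all genes with a count numbered 19418 and 19243 at 10 nM and 20606 and 20663 at 100 nM. Low genes took 0.891% and 0.893% of these counts at 10 nM and 1.15% and 1.18% at 100 nM. The lowest shares were at 1 nM, at 0.739% and 0.745%.

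In a fit without the filter, 440 of 11783 low genes were higher and 82 lower at 100 against 10 nM at an unadjusted p under 0.05 (edgeR's quasi-likelihood test), where 118 were higher and 295 lower at 1 against 0 nM, and 358 higher and 193 lower at 3 against 0.3 nM. An excess of higher low genes was thus not limited to the last step, but the earlier steps carry the selection of low genes given above. After adjustment 7 low genes rose and 3 fell at 100 against 10 nM, and 18 rose and 51 fell at 3 against 0.3 nM. The 7 were Fgfr2, Ptpn5, Impg2, Slc18a1, Irs3, Asb13 and Pth1r. Fgfr2, a receptor for fibroblast growth factors that is high in trophectoderm and primitive endoderm, had 10 nM counts of 6 and 5 and 100 nM counts of 26 and 21. Slc18a1, a vesicular transporter of monoamines, had 2 and 4 counts and then 18 and 17. Of the 3 falls, Inhbb, an activin and inhibin subunit, had 25 and 17 counts and then 6 and 8, Kcnj12, a potassium channel, 35 and 22 and then 10 and 15, and Ptprcap 9 and 3 and then 0 and 0. These low genes were looked at after the other results were known, and the source of the added counts was not tested.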
